A study of Homo sapiens with 7 samples.

Results

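The aldo-keto reductase genes were examined in HepG2, a human liver cancer cell line, by RNA level and by histone modification at single nucleosomes. The 10 genes were AKR1A1, AKR1B1, AKR1B10, AKR1C1, AKR1C2, AKR1C3, AKR1C4, AKR1D1, AKR7A2 and AKR7A3, found by symbol among 23303 loci with a gene symbol, and each had 1 row of its own whose coordinates no other locus shared. HepG2 was grown without any treatment named in the labels, and 7 samples were made from it: native MNase-Seq for nucleosome positions, ChIP-Seq of 3 activation marks (H3K4me3, H3K9ac and H3K27ac) and 2 repressive marks (H3K27me3 and H3K9me3), and RNA-Seq after removal of ribosomal RNA. Each assay had 1 sample, so nothing was replicated and no test was made. The RNA-Seq sample has FPKM values in 2 columns, called run 1 and run 2 here, which count as 1 replicate. FPKM are read fragments scaled to transcript length and to library size, so they can be compared between genes of unlike length. The genes were chosen by family name and by their FPKM and marked positions in these same data, so the levels and marks below are descriptions. The liver markers fixed for the cell line were all at an FPKM of at least 1 (10 of 10, median 607), led by ALB with 10011, APOA2 with 5209 and AFP with 3798, with FOXA2 at 13.99 and FGB at 56.6 among the lowest. None of 5 markers of other cells reached 1: COL1A1 was at 0.164, PECAM1 at 0.137 and DCN at 0.0430, and PTPRC and KRT14 were listed at 0.

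Aldo-keto reductases use NADPH to reduce aldehydes and ketones to alcohols. In the liver they act on sugars, on lipid aldehydes and drugs, and on steroids and bile acid precursors, and several of them are targets of NRF2, the transcription factor of the antioxidant response. The AKR1C genes lie side by side and encode very similar hydroxysteroid dehydrogenases. H3K4me3, H3K9ac and H3K27ac are marks of active promoters, H3K27ac alone is also known from enhancers, and H3K27me3 and H3K9me3 are marks of repression.

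The 3 AKR1C genes AKR1C1, AKR1C2 and AKR1C3 had the highest RNA levels, and AKR1C4 and AKR7A3 were near or under the median of all named loci. AKR1C1, which inactivates progesterone, had FPKM values of 448 (run 1) and 419 (run 2), rank 154 of 23298 loci with a usable value. AKR1C2, which inactivates dihydrotestosterone and binds bile acids, was at 172 in both runs, and AKR1C3, which makes testosterone and prostaglandin F, at 149.7 and 144. These 3 genes held 75.8% of the summed FPKM of the 10 genes in run 1 and 74.9% in run 2. AKR1C1 was 2.60 times AKR1C2 in run 1 and 2.44 times in run 2. How the authors' counting divided the reads that such similar genes share is not given in the sources used here, so the levels of the AKR1C genes relative to each other are uncertain.

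The AKR1A, AKR1B and AKR7A members came next. AKR1B1, the aldose reductase that turns glucose into sorbitol, was at 75.4 and 77.9, and AKR1A1, the aldehyde reductase that acts on glucuronate, at 58.8 and 62.5. AKR1B10, a close relative of AKR1B1 that reduces retinal and is often raised in liver tumours, was at 55.0 and 53.4. AKR7A2, which reduces succinic semialdehyde and aflatoxin aldehydes, followed with 41.8 and 36.8. AKR1D1, the reductase that gives bile acids and steroids their bent ring, was at 13.6 in both runs. The lowest were AKR1C4, the AKR1C member known as specific to liver, with 0.886 and 0.826, and AKR7A3, a second aflatoxin aldehyde reductase, with 0.452 and 0.589.

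The order of the 10 levels was the same in both runs, and no pair of neighbours in it overlapped. Among the 8 genes at an FPKM of at least 1, the log2 ratio of the runs was at most 0.18 in size, against a median of 0.06 over the expressed loci with their own coordinates. The runs are not known to be separate cultures, so this spread may be technical only. At least 1 FPKM was reached by 8 of 10 genes, where 48.7% of all named loci did and 47.2% of those with coordinates of their own. The same 8 were at 10 or more, where 27% of the named loci were (6297 of 23298), and at least 100 was reached by 3 of 10, where 3.11% did. The median over the 10 genes was 57.4, against 0.789 over all named loci. The difference within close pairs was large: AKR1C3 was at 169 times the level of AKR1C4 in run 1 and 174 times in run 2, and AKR7A2 at 92.5 and 62.5 times that of AKR7A3.

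**Figure D1:**
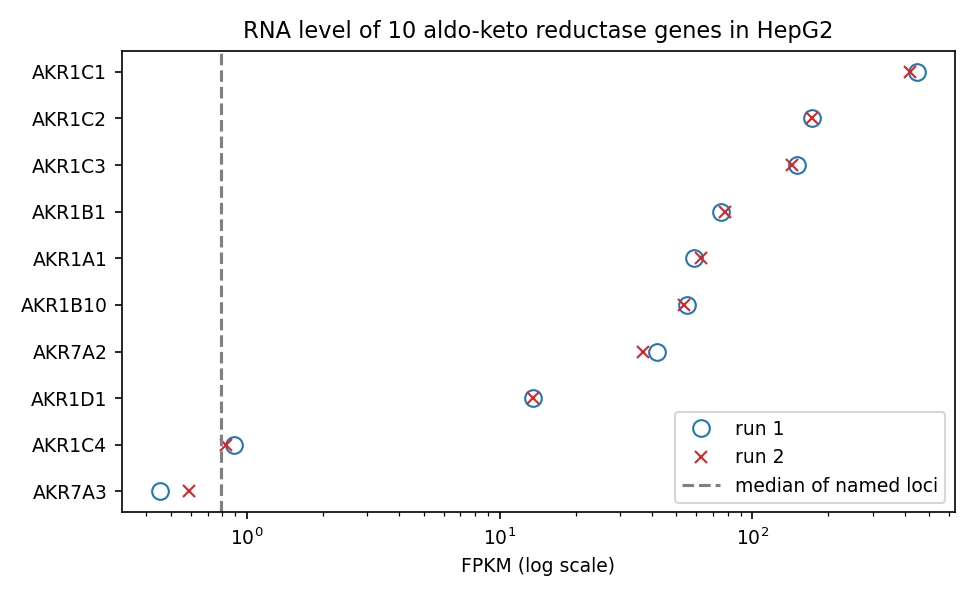
FPKM on a log scale for each of the 10 genes in run 1 (circles) and run 2 (crosses), in order of their mean, with the median of all named loci as a dashed line. AKR1C1 stands highest at 448 and 419, and AKR1C4 and AKR7A3 lie near the median of 0.789, below the other 8 genes.

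For the marks, all nucleosome positions between the listed ends of a locus and 10 kb on each side were counted. The 10 windows held 2240 positions, of which 144 carried at least 1 mark, or 6.43% (exact 95% binomial interval 5.45 to 7.52, for counting error only). The interval takes positions as independent, which neighbouring positions need not be. In the windows of all 14033 named loci with their own coordinates, whatever their FPKM, 1.92% of positions were marked, and in the whole genome 1.43%. The study describes a larger share for the genome, so a count of 0 below means no peak in the lists used here. A trivalent position, one with H3K4me3, H3K9ac and H3K27ac together ("T"), was found for 8 of 10 genes, where 52.0% of the named loci had one. These were the 8 genes at an FPKM of at least 1, and AKR1C4 and AKR7A3 had neither "T" nor H3K4me3. H3K4me3 was thus found for 8 of 10, against 64.5% of the named loci, and among named loci at an FPKM of at least 10, 97.6% had a "T". H3K27me3 was at 0 positions in the windows of all 10 genes, where 29.9% of the named loci had at least 1. H3K9me3 was found for 5 of 10 genes, against 28.1%. Windows of longer loci hold more positions, and this was not adjusted for.

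The number of positions with H3K4me3 was 14 for AKR1C1, 13 for AKR1C3, 12 for AKR1C2 and 10 for AKR1B10. It was 8 for AKR1A1, 6 for AKR7A2, 4 for AKR1B1 and 1 for AKR1D1. The number of "T" did not follow this order: AKR1C3 had 7, AKR1B10 5, AKR1A1 4, AKR1C1 and AKR7A2 3 each, AKR1B1 and AKR1C2 2 each and AKR1D1 1. So AKR1C1, with the highest RNA level, had fewer "T" than AKR1A1 at an FPKM near 60.7. The AKR1C1 window also had fewer nucleosome positions per kb, 4.12 against 5.30 for AKR1A1, and this was not adjusted for.

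**Figure D2:**
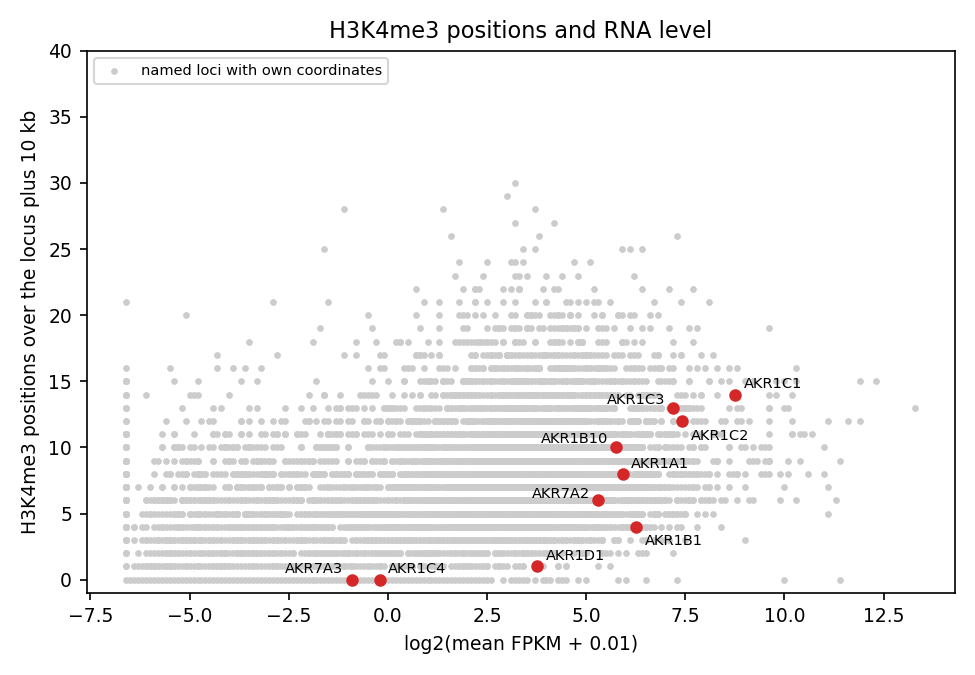
Number of nucleosome positions with H3K4me3 over the locus plus 10 kb against log2(mean FPKM + 0.01), for the named loci with their own coordinates (grey points) and the 10 genes (red, labelled). AKR1C1, AKR1C2 and AKR1C3 lie at 12 to 14 positions, AKR1D1 at 1, and AKR1C4 and AKR7A3 at 0.

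The distance of the marks from the listed start differed between members. The listed start is the end of the locus in the expression table from which the gene is read, in hg19, the build named in the submitters' processing notes. It is the outermost end of the locus and can lie far from an annotated start in RefSeq. Annotated starts were not placed in hg19, so an unmarked listed start is not shown to be an unmarked promoter. For AKR1C3, the 2 RefSeq starts are 45.6 kb apart, and H3K4me3 began 45.6 kb downstream of the listed start. H3K4me3 inside a listed locus may thus lie at an annotated start. A marked position lay within 2 kb of it for 5 of 10 genes, where 61.6% of the named loci had one, and 93.9% of those at an FPKM of at least 10. These were AKR1A1, AKR1B1, AKR1D1, AKR7A2 and AKR1C4. Of the 8 genes at an FPKM of at least 10 with a "T", 4 had no marked position within 2 kb of the listed start, namely AKR1C1, AKR1C2, AKR1C3 and AKR1B10. Among all named loci of that kind this was so for 5.70%. By H3K4me3 alone it was again these 4 of 8, against 6.82%. The count depends on the distance: within 5 kb AKR1C1 and AKR1C2 had marked positions, the nearest at 2.82 kb and 2.50 kb, which left AKR1C3 and AKR1B10, 2 of 8 against 2.63%. In each of these 4 genes the stretch of H3K4me3 lay downstream of the listed start, inside the locus. Whether the stretch lay at an annotated start was not tested. A stretch is a run of H3K4me3 positions whose starts are at most 1 kb apart.

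**Figure D3:**
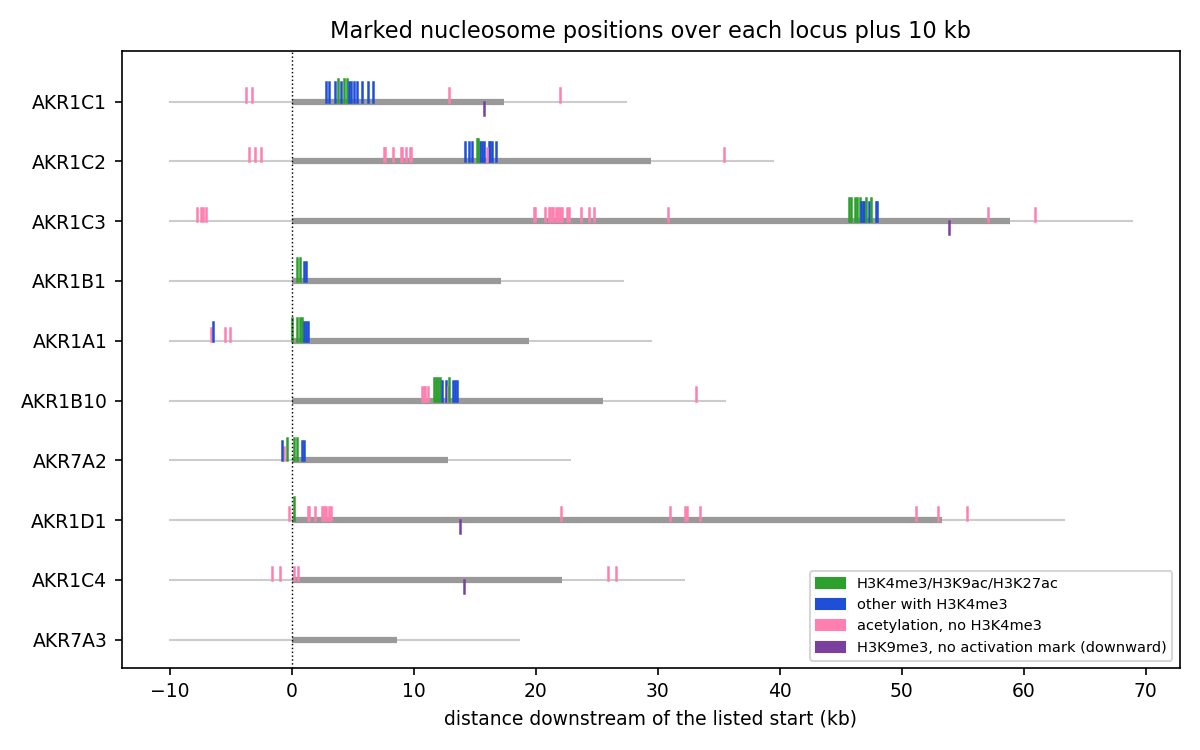
Marked nucleosome positions of the 10 genes by their distance downstream of the listed start in kb, with the locus as a thick line and the 10 kb on each side as a thin line. Green ticks carry H3K4me3, H3K9ac and H3K27ac, blue ticks other combinations with H3K4me3, pink ticks acetylation without H3K4me3, and purple ticks pointing down H3K9me3 with no activation mark. The green and blue ticks begin 2.75 kb downstream of the listed start in AKR1C1, 14.1 kb in AKR1C2, 45.6 kb in AKR1C3 and 11.5 kb in AKR1B10.

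AKR1C1 is listed at chr10:5002839-5020244 on the plus strand. Its H3K4me3 stretch, chr10:5005586-5009591, began 2.75 kb and ended 6.75 kb downstream of the listed start. Of 17 nucleosome positions in these 4006 bp, 14 carried H3K4me3, 6 H3K9ac and 3 H3K27ac. The 3 acetylated at H3K27 were the 3 "T". The stretch opened without H3K27ac, with H3K4me3, H3K4me3/H3K9ac and H3K4me3 in turn before the first "T". After the last "T", 7 positions carried H3K4me3 with or without H3K9ac. One of the "T" also carried H3K9me3. Only 1.60% of the named loci with an FPKM of at least 1 had a stretch with as many H3K4me3 positions.

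AKR1C2 is listed at chr10:5030788-5060207 on the minus strand. Its stretch, chr10:5043444-5046066, lay 14.1 to 16.8 kb downstream of the listed start. All 13 nucleosome positions in it were marked, 12 with H3K4me3 and 11 with H3K9ac, but H3K27ac was at only 2. Most of its positions thus carried H3K4me3/H3K9ac without H3K27ac. Some distance before it in the direction of transcription, chr10:5050337-5052731 held 8 acetylated positions without H3K4me3, 7 of them with H3K27ac alone.

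AKR1C3 is listed at chr10:5091036-5149880 on the plus strand. Its stretch, chr10:5136632-5139086, held 13 positions, all with H3K4me3, 10 with H3K9ac and 7 with H3K27ac. The first 5 in the direction of transcription were all "T". It began 45.6 kb downstream of the listed start, and RefSeq in GRCh38.p14 gives AKR1C3 a pair of promoter windows whose starts are 45.6 kb apart. Between the listed start and the stretch, chr10:5110782-5115851 held 16 acetylated positions without H3K4me3, 10 with H3K27ac alone and 6 with H3K9ac as well. This was the longest such run in the windows of the 10 genes.

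AKR1B10 is listed at chr7:134200787-134226323 on the plus strand. Its stretch, chr7:134212332-134214403, began 11.5 kb downstream of the listed start, with 4 "T" in a row. Of the 7 positions after them 1 was again "T", and the others carried fewer marks. Of 11 positions, 10 carried H3K4me3, 7 H3K9ac and 5 H3K27ac. Directly before it lay 4 positions with H3K27ac alone, at chr7:134211407-134212016.

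AKR1A1, AKR1B1 and AKR7A2 had their stretches at or within 0.388 kb of the listed start. In AKR1A1, listed at chr1:46016265-46035722 on the plus strand, 7 positions at chr1:46016172-46017646 carried H3K4me3, the first 4 of them "T", and the marks then fell away in order: H3K4me3/H3K9ac at 1 and H3K4me3 alone at 2. AKR1B1, listed at chr7:134127074-134144234 on the minus strand, had the shortest of these, 4 positions over 825 bp, 2 "T" followed by 2 with H3K4me3/H3K9ac. No other position in its window was marked, and 86.6% of the named loci with an FPKM of at least 1 had a stretch with as many H3K4me3 positions. AKR7A2, listed at chr1:19625861-19638669 on the minus strand, had 7 marked positions at chr1:19637632-19639581, with "T" at 3. Its listed start is 71 bp from that of PQLC2, a lysosomal transporter read in the other direction, at an FPKM of 13.1 and 11.5. The marks of the pair cannot be told apart.

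**Figure D4:**
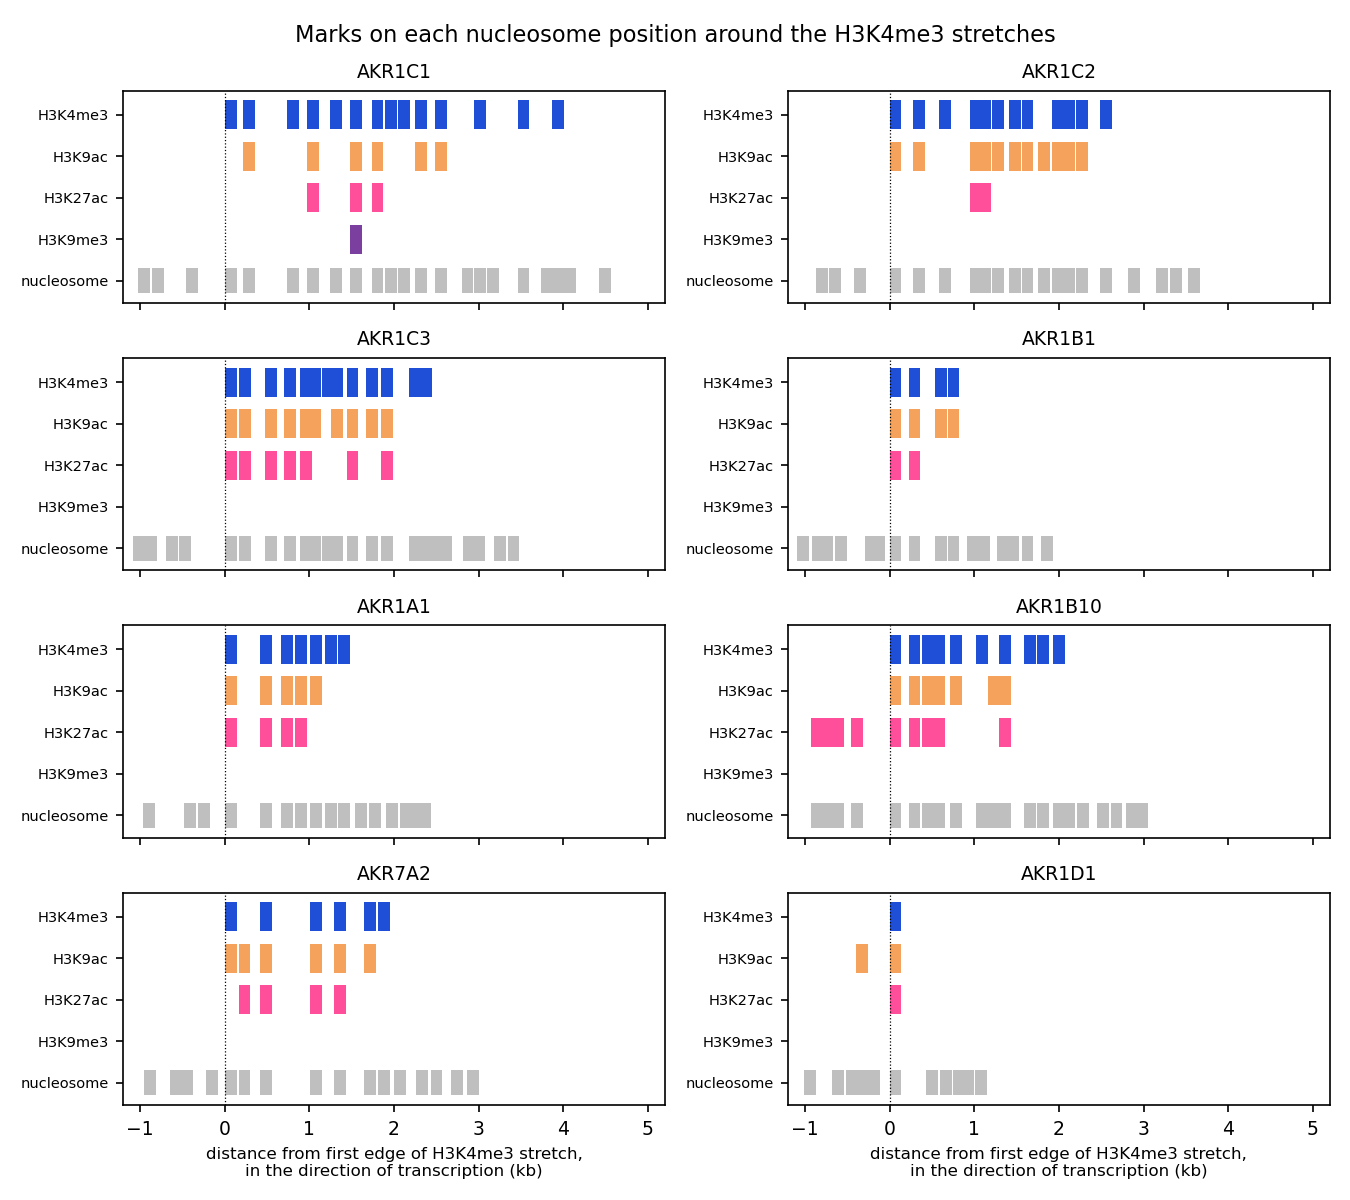
Each nucleosome position (grey) around the H3K4me3 stretch of 8 genes and the marks it carried (coloured rows), by distance in kb from the first edge of the stretch in the direction of transcription. H3K4me3 covers 14 positions in AKR1C1 but H3K27ac only 3, while in AKR1C3 H3K27ac covers 7 of 13 positions, and AKR1D1 has H3K4me3 at 1 position.

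AKR1D1 carried mostly acetylation. It is listed at chr7:137749717-137803050 on the plus strand, and 1 position at chr7:137749832-137749971, 0.115 kb downstream of the listed start, was "T" and its only one with H3K4me3. H3K27ac was at 16 positions, of which 13 carried it alone. A run of 8 acetylated positions at chr7:137750977-137752977 lay downstream of the start, 5 of them with H3K27ac alone. The other 8 with H3K27ac alone were scattered from 22.1 kb to 55.3 kb downstream, the last of them past the end of the locus. An H3K4me3 stretch of at least 1 position is found in 97.8% of the named loci with an FPKM of at least 1.

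AKR1C4 and AKR7A3 were the members at an FPKM under 1. AKR1C4, listed at chr10:5238798-5260912 on the plus strand, had 7 marked positions, among them H3K27ac alone at 4, a pair on each side of the listed start. AKR7A3, listed at chr1:19608927-19617504 on the minus strand, had 0 marked of 146 positions in its window. It was the 1 gene of 10 without any mark, where 85.6% of the named loci had at least 1. So the member with acetylation at its start and the one with none had RNA levels of the same order.

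The windows of the AKR1C genes were also set in their cluster. From 10 kb before AKR1C1 to 10 kb after AKR1C4, chr10:4992839-5270912 held 106 marked positions, of which 43, or 40.6%, carried H3K27ac alone, against 19.9% of all marked positions in the genome. H3K4me3 was at 42 positions and H3K27me3 at 0. Between the windows of the genes lay 19 marked positions. The largest group of these, 9 positions at chr10:5188914-5191201 with 3 "T", lay between AKR1C3 and AKR1C4, outside the 10 kb counted for either. The nucleosome map was thinnest over the pair with the most similar sequence: 4.12 positions per kb in the AKR1C1 window and 4.51 in that of AKR1C2, against 4.96 to 5.68 for the other 8. The part of read alignment in this was not tested.

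H3K9me3 and activation marks were called at the same nucleosome position in this cluster. Each mark was mapped in its own sample from many cells, so marks at a position need not share a nucleosome in a single cell. The part of read alignment between the similar genes was not tested. Of 8 H3K9me3 positions in the AKR1C windows, 5 also carried H3K4me3, H3K9ac or H3K27ac, or 62.5% (exact 95% binomial interval 24.5 to 91.5). In the genome this was so for 306 of 34534, or 0.886% (exact 95% binomial interval 0.790 to 0.991). Both intervals are for counting error only and take positions as independent, which neighbouring positions need not be. The 5 were the "T" of AKR1C1 named above, 1 with H3K27ac inside AKR1C1, 1 with H3K9ac between AKR1C1 and AKR1C2 that lies in both windows, and a pair past the end of AKR1C4, 1 with H3K27ac and 1 with H3K9ac. By gene, 3 of 10 had such a position in the window, where 1.18% of the named loci did. AKR1C2 was counted only through the position it shares with AKR1C1, and AKR1C4 only through the pair past its end. AKR1C1, AKR1C3, AKR1C4 and AKR1D1 each had 1 H3K9me3 position with no activation mark.

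The promoter sequences show how alike the AKR1C genes are at their starts. They are the 250 bases upstream of the annotated start, from RefSeq in GRCh38.p14, which held a window for 9 of the 10 genes, AKR1B10 not among them. No base of these windows was placed on the hg19 positions of the marks. AKR1C1 and AKR1C2 are shown as the most similar pair, with capitals for the letters that differ or fall outside the alignment: of 246 aligned bases, 245 were identical.
AKR1C1, chr10:4963165-4963414, plus strand: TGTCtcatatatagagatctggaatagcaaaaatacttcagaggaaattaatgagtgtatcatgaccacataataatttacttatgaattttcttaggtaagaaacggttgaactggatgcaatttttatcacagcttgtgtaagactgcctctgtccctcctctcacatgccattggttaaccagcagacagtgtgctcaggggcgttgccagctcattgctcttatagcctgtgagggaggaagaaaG
AKR1C2, chr10:5003858-5004107, minus strand: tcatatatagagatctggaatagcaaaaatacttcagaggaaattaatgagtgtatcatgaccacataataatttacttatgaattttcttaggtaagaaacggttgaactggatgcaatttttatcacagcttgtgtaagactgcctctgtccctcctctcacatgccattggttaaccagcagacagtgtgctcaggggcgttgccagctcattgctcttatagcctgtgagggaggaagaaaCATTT

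AKR1C3 and AKR1C4 are shown as the expressed and the nearly silent neighbour. Capitals mark the TATA box letters TATAAA on either strand, which 10.7% of all 35116 windows of this length hold. The first AKR1C3 window was 68.7% identical to that of AKR1C4 over 227 aligned bases, and the second, whose start is the one further downstream, 74.2% over 221. Both AKR1C3 windows were more like that of AKR1C1, at 76.8% and 79.1%. The letters were found on the minus strand in the first AKR1C3 window and on the plus strand in that of AKR1C4.
AKR1C3, first window, chr10:5048531-5048780, plus strand: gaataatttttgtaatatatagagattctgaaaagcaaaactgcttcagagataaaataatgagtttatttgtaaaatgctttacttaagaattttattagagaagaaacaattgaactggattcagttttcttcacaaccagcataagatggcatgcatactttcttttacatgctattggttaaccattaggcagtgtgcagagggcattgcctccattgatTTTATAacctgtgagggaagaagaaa
AKR1C3, second window, chr10:5094164-5094413, plus strand: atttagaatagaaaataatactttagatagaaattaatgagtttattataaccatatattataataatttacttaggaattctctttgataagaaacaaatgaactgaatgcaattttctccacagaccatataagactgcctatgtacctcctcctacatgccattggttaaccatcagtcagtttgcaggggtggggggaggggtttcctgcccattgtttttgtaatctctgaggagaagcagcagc
AKR1C4, chr10:5196587-5196836, plus strand: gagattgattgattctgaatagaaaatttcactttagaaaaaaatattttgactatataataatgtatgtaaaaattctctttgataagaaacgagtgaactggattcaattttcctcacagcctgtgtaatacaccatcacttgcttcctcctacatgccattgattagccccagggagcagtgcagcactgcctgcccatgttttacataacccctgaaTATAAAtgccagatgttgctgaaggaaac

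AKR7A2 and AKR7A3 are shown as the pair with and without marks. Capitals here are matches to the core of the antioxidant response element, TGACNNNGC on either strand, the kind of site NRF2 binds. AKR7A2 held 3 matches that do not overlap, and AKR7A3 and the other members with a window held 0, where 10.9% of all windows hold at least 1. A match is a description of the letters and not a shown site.
AKR7A2, first window, chr1:19312147-19312396, minus strand: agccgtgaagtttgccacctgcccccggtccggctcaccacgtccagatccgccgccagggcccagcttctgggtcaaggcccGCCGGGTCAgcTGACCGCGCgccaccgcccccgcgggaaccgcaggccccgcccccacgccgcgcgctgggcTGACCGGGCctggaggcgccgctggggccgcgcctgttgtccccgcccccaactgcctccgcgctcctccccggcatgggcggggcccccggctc
AKR7A3, chr1:19288771-19289020, minus strand: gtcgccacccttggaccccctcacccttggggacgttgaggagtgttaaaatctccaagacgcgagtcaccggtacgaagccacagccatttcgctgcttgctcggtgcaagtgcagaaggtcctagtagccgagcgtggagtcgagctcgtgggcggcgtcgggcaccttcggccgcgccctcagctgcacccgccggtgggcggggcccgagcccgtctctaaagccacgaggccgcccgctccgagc

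By CpG content the windows fell into separate kinds. AKR7A2 had 31 CpG in 250 bases, AKR1B1 28, AKR7A3 27 and AKR1A1 17, all above the median of 11 over all windows. A second AKR1B1 window had 12, near that median, and a second AKR7A2 window 31. AKR1C1 and AKR1C2 had 2 each, AKR1C4 and AKR1D1 1 each and AKR1C3 0 in both windows. AKR1C1, AKR1C2 and AKR1C3, with the highest RNA levels and the longest H3K4me3 stretches, thus had few CpG at the annotated start. So did AKR1D1 and AKR1C4, with H3K4me3 at 1 and 0 positions. AKR7A3, with no mark, had many, and AKR1B10 had no window.

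**Figure D5:**
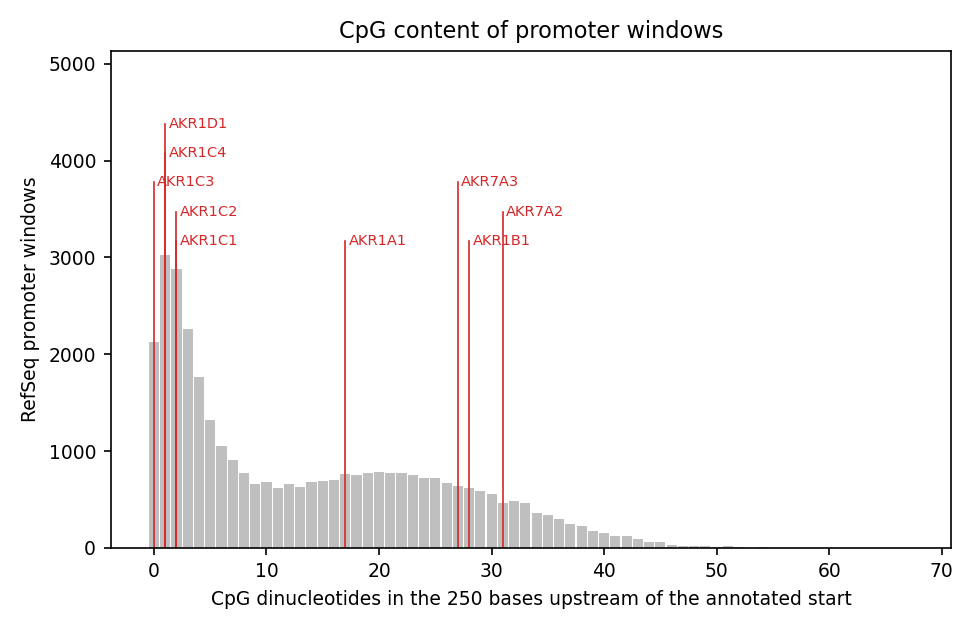
CpG dinucleotides in the 250 bases upstream of the annotated start, for all 35116 RefSeq promoter windows (grey bars, number of windows) and for the first window of 9 of the genes (red lines). AKR1C1, AKR1C2, AKR1C3, AKR1C4 and AKR1D1 lie at 0 to 2, and AKR1A1, AKR7A3, AKR1B1 and AKR7A2 at 17 to 31.

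Further genes of the family were low. Of 5 with a row of their own, 1 reached an FPKM of 1, where 48.7% of all named loci did. This was KCNAB2, a potassium channel subunit with a reductase fold, at 6.47 as the mean of the runs. AKR1B15, next to AKR1B10, was at 0.433 and 0.169, AKR7L, next to AKR7A3, at 0.258 and 0.169, and AKR1E2 was listed at 0 in both runs. KCNAB1, another channel subunit, was at 0.787. AKR1B10 thus lay beside a low AKR1B15, and AKR7A3 beside a low AKR7L.

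Among NRF2 target genes, 19 of 20 with their own row were at an FPKM of at least 1 and 7 at 100 or more, with a median of 64.0. Of all named loci, 48.7% and 3.11% reached these limits. The highest were FTL and FTH1, the ferritin chains, with means of 8062 and 1813, and NQO1, the quinone reductase, with 284. The lowest were ME1, malic enzyme, with 0.0809, ABCC3 with 13.9 and GCLM with 16.9. Of 14 with their own coordinates, 13 had a "T" in the window, all but ME1. Of all named loci 52.0% had one, and 97.6% of those at an FPKM of at least 10. All 7 genes for NRF2 and its regulators with their own row were at an FPKM of at least 1, against 48.7% of all named loci. The highest were SQSTM1 with 150.3, NFE2L2, which encodes NRF2, with 109.8, and KEAP1, its inhibitor, with 20.9. The lowest were MAFF with 3.60, MAFK with 6.19 and BACH1 with 12.7.

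In bile acid synthesis, the pathway of AKR1D1 and AKR1C4, 8 of 14 genes were at an FPKM of at least 1, with a median of 2.33, a share near the 48.7% of all named loci. SCP2 had 106, HSD17B4 84.0 and CYP27A1, which starts the acidic pathway, 74.5. CYP46A1 and CH25H were listed at 0 and CYP7B1 was at 0.173. CYP7A1, the rate-limiting enzyme of the classic pathway, was at 0.216 and 0.240 in the runs. The other carbonyl and steroid enzymes were short-chain dehydrogenases and the membrane-bound steroid 5-alpha reductases SRD5A1, SRD5A2 and SRD5A3. Their median was 7.93, and 19 of 27 were at an FPKM of at least 1, against 48.7% of all named loci. DHRS2 led with 997, above AKR1C1, followed by DCXR with 138 and HSD17B4. HSD3B1 and HSD3B2, enzymes of steroid hormone synthesis, were listed at 0, and DHRS9 was at 0.0319.

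With 1 sample per assay there is no likeness across samples, so other loci were compared with AKR1C1, AKR1C2 and AKR1C3 by their combination of measures. Of 418 named loci with their own coordinates and a mean FPKM of at least 100, 22 (5.26%) had a "T" in the window and no marked position within 2 kb of the listed start. The 3 AKR1C genes are among these. The 5 with the highest FPKM were TF with 1006, AKR1C1 with 433, H3F3A with 401, a combined row of SAA2 and SAA4 with 289, and NQO1 with 284. The nearest H3K4me3 position was 29.6 kb from the listed start of TF, but 2.38 kb from that of H3F3A and 2.93 kb from that of NQO1, close to the 2.82 kb of AKR1C1.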

How the data were processed

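All data are from HepG2, with 1 sample per assay. The submitters' processing notes name hg19 and BWA, and for RNA-Seq TopHat2 2.1.0, Bowtie, HOMER 4.7 and edgeR, with no roles. The authors deposited FPKM in 2 columns of 1 sample, in the layout of Cuffdiff, with columns comparing the 2 runs (fold, p-value, q-value), which were not used. The authors called nucleosome positions with DANPOS and peaks with NUCLIZE, and deposited coordinates without heights or scores, so the depth behind a single position cannot be read from the files. The peak lists used here hold 203848 marked positions, 1.43% of all, far fewer than the study describes, and 0 marked positions means no peak in these lists.

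A peak was given to the position whose identifier it carries, and on the chromosomes of the 10 genes all 39349 marked positions matched by coordinates. The listed start was taken by the strand in RefSeq, otherwise by the order of locus numbering, which gave the same strand for 99.3% of 8868 loci. Genes and lists were chosen with earlier results of these data known. Named are the 10 genes, the 3 highest and 3 lowest of each list by mean FPKM, and the 5 highest loci of the same pattern. CYP7A1 and PQLC2 were named after their values were seen, and 1 low liver marker and 1 motif are not reported here. List genes that share a row with another gene were not counted. Promoter windows are RefSeq's, aligned globally with free end gaps. Counting was tested on simulated data, where trivalent counts were recovered for 500 of 500 planted loci. Alternatives were single runs, other FPKM limits, windows, distances and matching. Python 3.11.15, scipy 1.17.1, Biopython 1.88 and matplotlib 3.10.9 were used.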

Additional observations from a re-analysis of the deposited data

How the results depend on the processing

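Of 23 alternatives, 21 gave counts within 1.5 times the value reported. The other 2 concern the genes at an FPKM of at least 10 with a "T" and no marked position near the listed start, and were chosen after seeing the data: this count was 4 within 1 kb and with any overlap, but 2 within 5 kb (AKR1C3 and AKR1B10) and 2 where either listed end counted (AKR1C2 and AKR1B10). The number of genes at the FPKM limit was 8 with either run alone and with a limit of 5, and 10 with a limit of 0.1. The number with a "T" was 8 with every window and with any overlap of at least 1 bp. Neither count of 8 of 10 could rise 1.5 times. Leaving out rows with several symbols could change no count, because each gene has a row of its own. A marked position near the listed start was found for 5 genes within 1 kb, for 7 within 5 kb and for 7 where either listed end counted. The marked positions numbered 118 in the loci alone and 167 with any overlap, against 144. No paired analysis was possible because there is 1 sample per assay. The files give no depth for single positions, and a stricter peak threshold could not be set from lists without scores.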
